A study of Rattus norvegicus with 8 samples.

Results

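The genes described here encode the acute-phase and major plasma proteins of the liver, together with the receptors and transcription factors that regulate them. The set holds 34 genes chosen by symbol for their role, and 32 of them had a probe whose accession matched the rat symbol. Itih2 and Il1r1 were not matched and are not analysed here. The array matched 13031 symbols in all, and 24194 features (named genes and unnamed accessions) were tested. By their known behaviour in inflammation 19 of the genes were listed as positive acute-phase proteins, 4 as negative ones and 7 as regulators, and 4 (Itih1, Itih2, Ambp and Kng1) were put in neither direction. The 19 include Saa4, a constitutive serum amyloid.

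Liver RNA came from male Wistar/ST rats, an outbred laboratory strain. All rats ate a high-fat diet and drank high-fructose water, so the Control rats carry this dietary load too and no rat on ordinary chow was analysed here. The Eucommia rats also drank a leaf extract of Eucommia ulmoides, a tree whose leaves are made into tea. The treatment lasted 5 weeks, and each group has 4 single-colour arrays. The ages of the rats, the dose and any pooling are not given in the sources used here. Nothing says outright that every array is a separate rat, and p-values cover only the variation among the 8 samples, part of which may be technical.

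The Control arrays shared 1 slide and the Eucommia arrays shared a different one, scanned separately. Slide effects and treatment effects therefore cannot be told apart. Of non-control spots, 58.9% to 61.5% were well above background on the Control arrays and 69.3% to 71.9% on the Eucommia arrays. The lowest signal well above background was 11.2 to 13.7 on the Control arrays and 5.69 to 6.05 on the Eucommia arrays, before scaling. All 32 genes were well above background on all 8 arrays, and no spot was saturated. Values are log2 signals relative to the 75th percentile of their array, so 0 is the signal at that percentile. They compare a probe between arrays and do not rank genes against each other. In whole liver, fewer cells of a type and less RNA per cell cannot be told apart. The liver label was borne out by the bright signals of 9 hepatocyte markers. These summed to 2285 to 2631 on the Control arrays and 2057 to 2595 on the Eucommia arrays, as multiples of the array's 75th percentile. All 9 were tested and 0 passed in either direction by limma, against 24.8% of all features and 9.64% of those above the 75th percentile.

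During the acute-phase response to infection or injury, hepatocytes change the mix of proteins they secrete into blood. Interleukin-6 binds its receptor (Il6r) together with gp130 (Il6st), and the resulting signal activates Stat3. Interleukin-1 acts through Il1r1 and is blocked by the antagonist Il1rn, and the factors C/EBP beta and delta (Cebpb, Cebpd) act with these pathways on many of the same genes. Positive acute-phase proteins then rise, and negative ones such as albumin and transthyretin fall. In the rat, alpha-2-macroglobulin (A2m) is a strongly inducible acute-phase protein that is scarce in healthy adult liver.

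A2m, Serpina3n and Stat3 were lower and Steap4 was higher in the Eucommia group at an adjusted p under 0.05 by limma, so that 1 of 32 was higher and 3 lower. That is 12.5% of the genes, against 24.8% of all features tested (18.6% higher, 6.13% lower). In the range above the 75th percentile, where 30 of the 32 genes lie, 9.64% of features were called (3.75% higher, 5.9% lower). The groups did not overlap at 7 of the 32 (21.9%), against 28.6% of all features and 17.0% of those above the percentile. Calls over all features were 75.2% higher ones as scaled here, but 32.7% under median centring, 42.7% with no filter on dim probes, 59.2% with quantile normalization, 59.9% with normexp and 63.2% among probes above background on all 8 arrays. Of the 32 differences 23 (71.9%) were below 0, with a median of -0.16. That count depended on the scaling, and was 17 with quantile normalization, 19 with normexp, 21 with cyclic loess and 31 with median centring. Over all features 47.1% were below 0 and the median was 0.02, and above the percentile 57.6% were below 0. For features with a mean log2 signal above 7, where 19 of the 32 genes lie, 75.9% were below 0, the median was -0.11, 1.67% were called higher, 8.36% lower and 16.4% did not overlap. For those 19 genes 84.2% were below 0 with a median of -0.16, and 1 (Serpina3n) was called.

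The median log2 difference was -0.16 for the 19 positive proteins (1 higher, 2 lower), -0.21 for the 4 negative proteins (0 called) and -0.08 for the 6 tested regulators (0 higher, 1 lower). The 3 genes in neither direction had a median of -0.07. All of these values lay below the median of all features. Features above the 75th percentile had a median of -0.04, and those with a mean log2 signal above 7 had -0.11. The 3 genes in neither direction are all that bright, and their -0.07 lay above -0.11. The 4 negative proteins are that bright too, and their -0.21 lay below it. Under median centring, which moved the median of all features to -0.23, the medians were -0.41, -0.47 and -0.33. There 19 of the 32 were called lower. Of the 24194 features 7635 were called lower under that setting, and 46.9% were called in either direction. With normexp background correction and quantile normalization the negative proteins had a median of 0.01 and the positive ones -0.05.

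**Figure D1:**
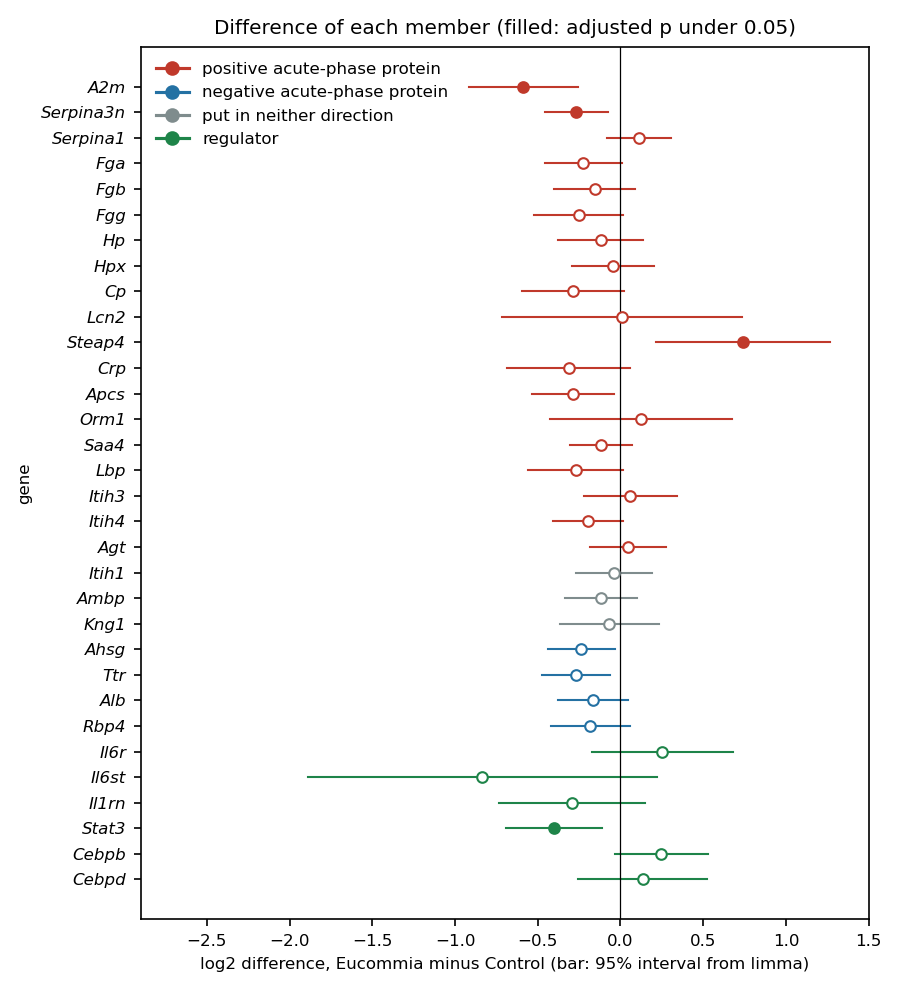
Log2 difference (Eucommia minus Control, 4 arrays each) of the 32 genes, with the 95% interval from limma as bars; filled points passed an adjusted p of 0.05. A2m, Serpina3n and Stat3 lie below 0 and Steap4 above it, and 23 of the 32 points are below 0.

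**Figure D2:**
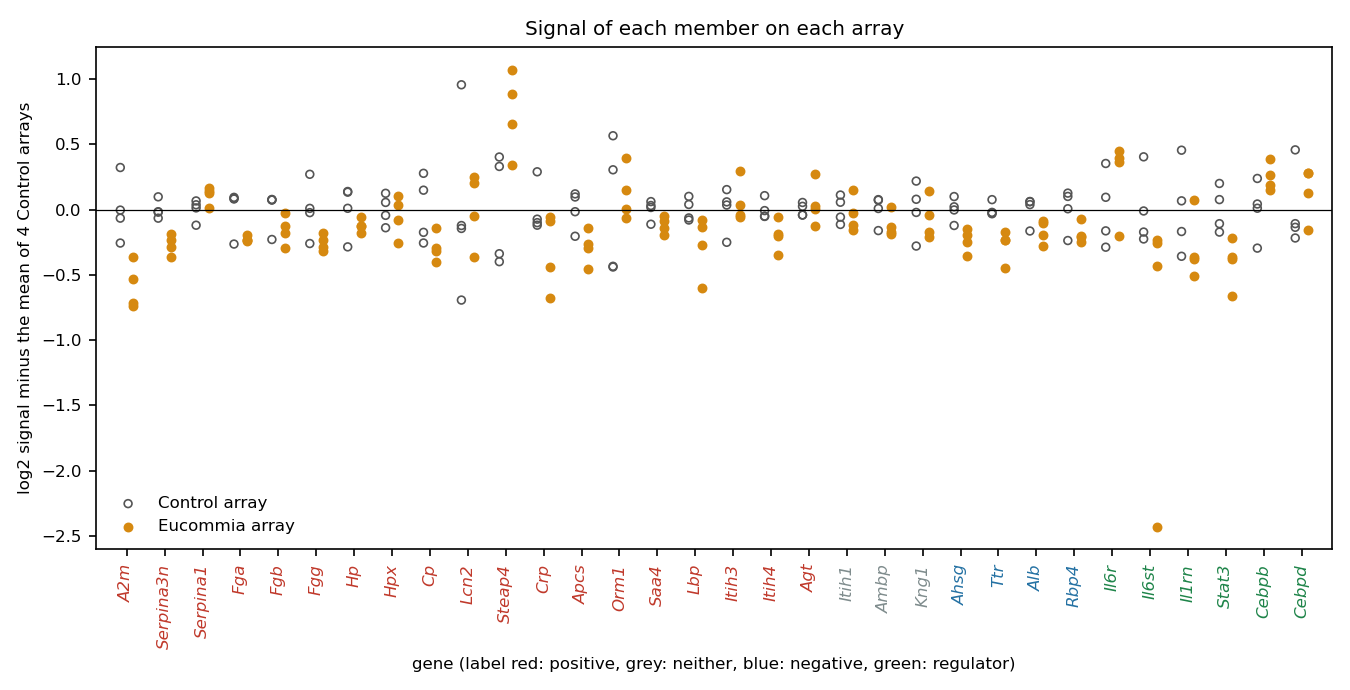
Log2 signal of each gene on each array, minus the mean of the 4 Control arrays. Open points are Control arrays and filled points Eucommia arrays; the lowest point is Il6st on Eucommia replicate 4.

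Of the 4 called genes, A2m passed in the most alternatives. A2m, a broad inhibitor that traps proteases in plasma, read 0.33, 0.39, 0.72 and 0.14 on Control replicates 1 to 4 and 0.04, -0.32, -0.34 and -0.13 on Eucommia replicates 1 to 4. Every Eucommia array was below every Control array. The log2 difference was -0.59 ± 0.14 (SE; 95% interval -0.91 to -0.26; adjusted p = 0.0166 by limma), 1.5-fold lower. The array holds 1 matched probe for A2m. Without Eucommia replicate 2 or 3 the adjusted p by limma was 0.0606 and 0.0577, with differences of -0.54 and -0.54.

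Serpina3n, a secreted serine protease inhibitor of the antichymotrypsin family, read 9.27, 9.38, 9.22 and 9.26 on the Control arrays. It read 8.92, 8.996, 9.10 and 9.05 on the Eucommia arrays, again with no overlap. The log2 difference was -0.27 ± 0.08 (SE; adjusted p = 0.0489 by limma), 1.20-fold lower. The size of this call depended on the scaling: it was -0.11 with quantile normalization (adjusted p = 0.371 by limma) and -0.06 with normexp (0.556), and it did not pass in any fit that left 1 array out (adjusted p 0.0680 to 0.133). In the fit over all probes the adjusted p of Serpina3n was 0.0507 by limma. Serpina1, alpha-1-antitrypsin, read 9.63 to 9.82 on the Control arrays and 9.76 to 9.91 on the Eucommia arrays. Its log2 difference of 0.11 ± 0.09 (95% interval -0.08 to 0.30) did not pass (adjusted p = 0.396 by limma). With quantile normalization and with normexp Serpina1 was called higher. Serpina3n and A2m belong to families with close relatives, whose transcripts these probes may also detect.

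**Figure D3:**
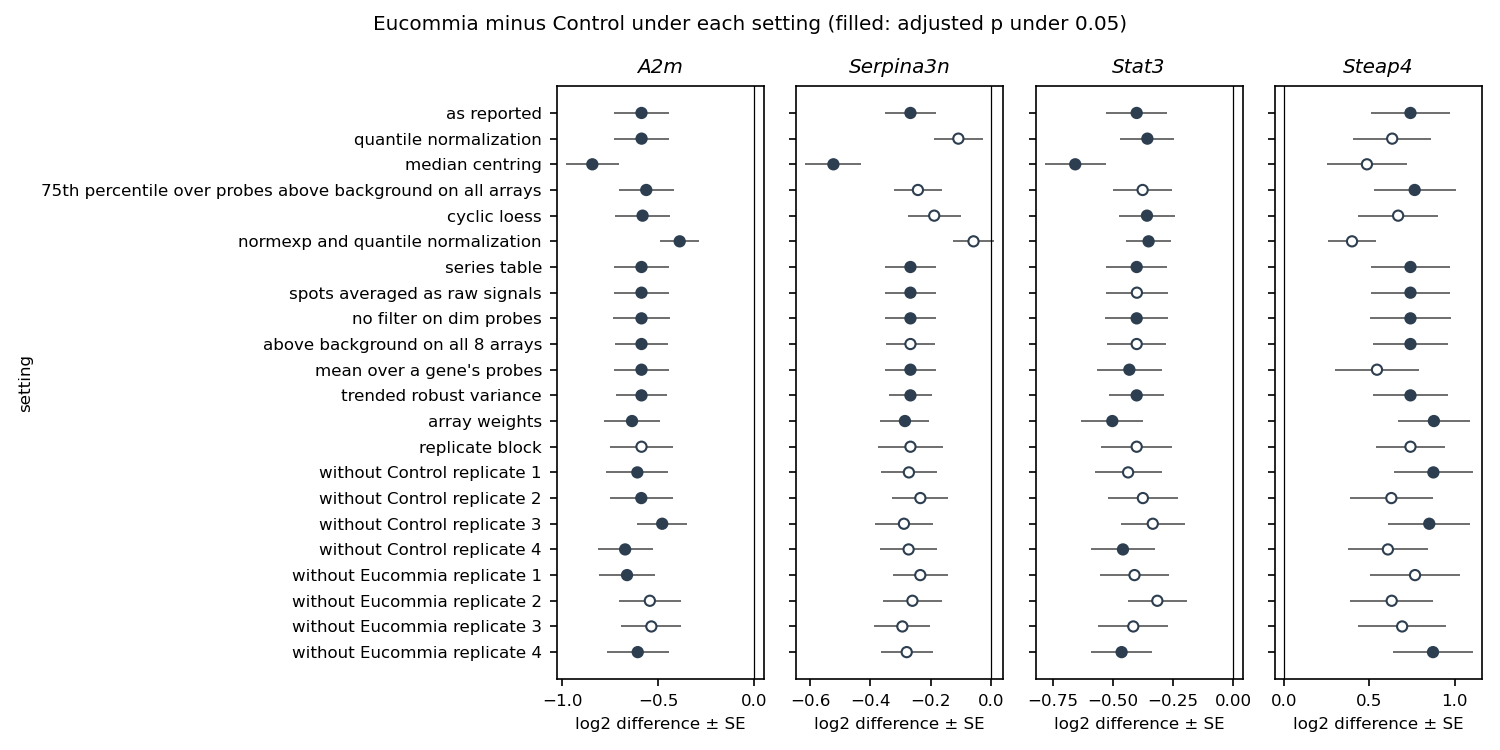
Log2 difference ± SE of the 4 called genes under each processing setting, with filled points at an adjusted p under 0.05. A2m stays between -0.84 and -0.39 and passes in 18 of 21 alternatives, Stat3 in 11, Steap4 in 10 and Serpina3n in 7.

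The sequence just upstream of the called genes is shown because Stat3 itself was among them and STAT factors and C/EBP act on acute-phase promoters. The windows are the 250 bases before the RefSeq start of Serpina3n (chr6:129088142-129088391, plus strand), Steap4 (chr4:27054770-27055019, minus strand) and Stat3 (chr10:86363360-86363609, minus strand), all in build GRCr8. Capitals mark matches to the STAT motif TTCNNNGAA or the C/EBP motif TTGCNNAA, searched on both strands.
Serpina3n: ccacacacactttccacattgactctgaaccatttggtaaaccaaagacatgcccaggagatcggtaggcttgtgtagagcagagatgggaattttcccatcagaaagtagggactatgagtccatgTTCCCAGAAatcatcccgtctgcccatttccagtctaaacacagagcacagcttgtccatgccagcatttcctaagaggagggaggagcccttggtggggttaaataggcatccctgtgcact
Steap4: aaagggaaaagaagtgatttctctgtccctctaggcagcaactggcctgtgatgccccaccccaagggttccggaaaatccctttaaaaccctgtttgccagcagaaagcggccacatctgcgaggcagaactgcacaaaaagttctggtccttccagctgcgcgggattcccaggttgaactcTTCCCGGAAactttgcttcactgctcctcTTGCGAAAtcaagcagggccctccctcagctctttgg
Stat3: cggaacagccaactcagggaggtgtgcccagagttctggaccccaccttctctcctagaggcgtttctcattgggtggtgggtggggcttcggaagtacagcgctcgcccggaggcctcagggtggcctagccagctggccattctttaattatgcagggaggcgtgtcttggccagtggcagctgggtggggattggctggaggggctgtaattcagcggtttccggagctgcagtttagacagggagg

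Serpina3n has a STAT match that begins 123 bases before the start. Steap4 has a STAT match 66 bases and a C/EBP match 37 bases before it. The Stat3 window has neither. Thus a gene called lower and a gene called higher both carry the STAT letters. Of the 28 genes with a promoter entry 5 (17.9%) held the STAT motif, namely Fga, Fgb, Itih4, Serpina3n and Steap4, against 7.67% of 33469 promoter windows of the same length. The C/EBP motif was in 13 of the 28 (46.4%) against 9.22%, among them Ahsg, Alb, Cp, Fga, Fgb, Hpx, Lcn2, Orm1 and Rbp4. No STAT match shared bases with a C/EBP match. Of the 13, Itih2 was not tested and only Steap4 was called. The 28 also include Il1r1, which was not tested. A match is a description of the letters, not of binding. A2m, Hp, Agt, Cebpd, Lbp and Saa4 had no promoter entry.

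The 3 fibrinogen chains, which assemble into the clotting protein and rise together in inflammation, all had negative differences that did not pass. Fga read 9.24, 9.59, 9.58 and 9.59 on the Control arrays and 9.26, 9.30, 9.27 and 9.27 on the Eucommia arrays. Control replicate 1 alone was as low as the Eucommia arrays. The log2 difference was -0.22 ± 0.10 (SE; adjusted p = 0.157 by limma), and without Control replicate 1 it was -0.31 and passed (adjusted p = 0.0250 by limma). Fgb had -0.16 ± 0.11 and Fgg -0.25 ± 0.12, with adjusted p by limma of 0.342 and 0.167. The other probe of each gene gave a larger difference, -0.31 ± 0.10 for Fgb (adjusted p = 0.0545, over all probes) and -0.35 ± 0.12 for Fgg (0.0689), and on both of these probes the difference missed the threshold. On that Fgb probe all 4 Eucommia arrays (9.48 to 9.69) lay below the Control arrays (9.70 to 10.02), by a narrow gap. In Fgb, too, Control replicate 1 (9.63) lay apart from the other Control arrays (9.93 to 9.94).

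Among the genes that handle heme and metals, 1 of 5 was called (20%, against 24.8% of all features and 9.64% of those above the 75th percentile). Steap4, a metalloreductase that is induced in inflamed liver and fat, read -1.41, -2.16, -1.49 and -2.22 on the Control arrays and -1.16, -0.75, -0.93 and -1.47 on the Eucommia arrays. Of the Eucommia arrays 3 lay above the highest Control array, and replicate 4 lay within the Control range. Steap4 lies below the 75th percentile. Higher calls made up 18.6% of all features (4505 of 24194) and 3.75% of those above that percentile (328 of 8751). The share among features below it, as Steap4 is, was thus above 18.6%. The log2 difference of Steap4 was 0.74 ± 0.23 (SE; 95% interval 0.21 to 1.27; adjusted p = 0.0468 by limma), 1.67-fold higher. Its other probe gave 0.35 ± 0.27 (adjusted p = 0.409), and the mean of both 0.54 (0.155). The call was lost without Control replicate 2 or 4 (adjusted p 0.109 and 0.111) and without Eucommia replicate 1, 2 or 3 (0.0915, 0.136 and 0.122). It was also lost with quantile normalization (0.0729), cyclic loess (0.0666), median centring (0.117) and normexp (0.0634), all by limma.

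Haptoglobin (Hp), which binds free hemoglobin, read 9.69, 10.11, 10.11 and 9.98 on the Control arrays and 9.79, 9.85, 9.85 and 9.91 on the Eucommia arrays. The Eucommia arrays sat inside the Control range, and the difference of -0.12 ± 0.11 (95% interval -0.37 to 0.13) did not pass. Hemopexin (Hpx), which binds heme, had -0.05 ± 0.11, and ceruloplasmin (Cp), the copper-carrying ferroxidase, had -0.29 ± 0.14 (adjusted p = 0.167 by limma). Cp had 3 probes, at -0.29, -0.25 and -0.51. Lipocalin 2 (Lcn2), a siderophore-binding protein that rises steeply in inflamed liver and is also stored in neutrophil granules, had 0.01 ± 0.32. Its values ran from -3.62 to -1.97 on the Control arrays and from -3.29 to -2.67 on the Eucommia arrays, and its sign changed in 10 of 21 alternatives. Of 10 neutrophil markers 5 were tested. The granule proteins S100a8 and S100a9 had -0.08 ± 0.29 and -0.13 ± 0.30 and did not pass, and Cxcr2, Camp and Mmp8 were above background on no array. Np4, a defensin, was higher by 0.62 ± 0.08 (adjusted p = 0.000356 by limma). Elane and Csf3r were above background on the 4 Eucommia arrays and on 0 Control arrays, so they entered the test through the group in which they are high, and their bounds were at least 2.67-fold and 1.16-fold. The summed signal of the list was 1.52 to 1.78 on the Control and 2.28 to 2.52 on the Eucommia arrays, of which Np4 was the largest part. The part of these markers in the Lcn2 and Steap4 values was not tested.

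No pentraxin or ligand-binding protein passed, and 4 of 5 had negative differences. C-reactive protein (Crp), a pentraxin that binds phosphocholine, read 7.24 to 7.65 on the Control arrays and 6.69 to 7.31 on the Eucommia arrays, with a difference of -0.31 ± 0.16 (SE; adjusted p = 0.213 by limma). Its other probe gave -0.55 ± 0.21. Serum amyloid P (Apcs), the related pentraxin, had -0.29 ± 0.11 (adjusted p = 0.0931), and 3 of its 4 Eucommia arrays lay below the lowest Control array. Lipopolysaccharide-binding protein (Lbp) had -0.27 ± 0.13 and the constitutive serum amyloid Saa4 -0.12 ± 0.08, with -0.37 ± 0.18 on its other probe. Saa4 is counted with the positive proteins although it is a constitutive form. Orm1, alpha-1-acid glycoprotein, varied within the Control group, at 5.54, 6.29, 6.55 and 5.55. Its Eucommia arrays (5.92 to 6.38) lay inside that range, and the difference was 0.12 ± 0.24 (95% interval -0.43 to 0.67).

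The inter-alpha-inhibitor heavy chains are linked to bikunin, which is cut from the Ambp precursor, and the complex stabilizes hyaluronan matrix. None of the 4 tested genes passed. Itih4 read 7.20, 7.20, 7.24 and 7.35 on the Control arrays and 7.05, 6.90, 7.19 and 7.06 on the Eucommia arrays. The groups did not overlap, but the gap was narrow and the difference of -0.20 ± 0.09 did not pass (adjusted p = 0.171 by limma). Itih3 had 0.06 ± 0.12 and Itih1 -0.04 ± 0.10. Ambp, whose probe was among the brightest of the set, read 9.96, 10.20, 10.19 and 10.13 on the Control arrays and 9.95, 9.99, 9.93 and 10.14 on the Eucommia arrays. The groups overlapped, at a difference of -0.12 ± 0.09. Of the precursors of vasoactive peptides, angiotensinogen (Agt) had 0.05 ± 0.10 (95% interval -0.19 to 0.28) and kininogen 1 (Kng1) -0.07 ± 0.13, neither past the threshold. Kng1 has a close relative in the rat, which its probe may also detect.

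None of the 4 negative acute-phase proteins passed, and all 4 had differences below 0. Transthyretin (Ttr), a carrier of thyroid hormone and of the retinol-binding protein, read 9.64, 9.75, 9.65 and 9.65 on the Control arrays and 9.23, 9.44, 9.50 and 9.44 on the Eucommia arrays. The groups did not overlap, and the difference of -0.27 ± 0.09 (SE; 95% interval -0.48 to -0.06) missed the threshold (adjusted p = 0.0632 by limma). Fetuin-A (Ahsg), an inhibitor of calcification, read 9.42, 9.54, 9.56 and 9.64 on the Control arrays and 9.19, 9.29, 9.39 and 9.35 on the Eucommia arrays. They did not overlap either, with a difference of -0.24 ± 0.09 (adjusted p = 0.0908). The other Ahsg probe gave -0.39 ± 0.09 and passed (adjusted p = 0.0112, over all probes).

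Albumin (Alb), the main plasma protein, read 9.79, 10.02, 9.997 and 10.02 on the Control arrays and 9.68, 9.76, 9.85 and 9.87 on the Eucommia arrays. The difference was -0.17 ± 0.09 (95% interval -0.38 to 0.04; adjusted p = 0.242 by limma). The probes of Alb disagreed in their call: the others gave -0.22 ± 0.10 and -0.42 ± 0.10, and the last of these passed (adjusted p = 0.0139, over all probes). Retinol-binding protein 4 (Rbp4) had -0.18 ± 0.10. With normexp Ttr was at 0.02 and Rbp4 at 0.10.

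Of the regulators, 1 of 6 tested was called (16.7%, against 24.8% of all features and 9.64% of those above the 75th percentile). Stat3, the factor that carries the interleukin-6 signal to the nucleus, read 2.82, 3.01, 3.13 and 2.76 on the Control arrays and 2.55, 2.27, 2.57 and 2.72 on the Eucommia arrays. Every Eucommia array lay below every Control array. The log2 difference was -0.40 ± 0.13 (SE; 95% interval -0.69 to -0.11; adjusted p = 0.0498 by limma), 1.32-fold lower. Its other probe gave -0.46 ± 0.18 (adjusted p = 0.106 by limma, over all probes). In that fit over all probes the reported probe did not pass either (0.0513). The call lay at the threshold: it held with quantile normalization, cyclic loess and normexp (adjusted p 0.0451, 0.0485 and 0.0237) but not when spots were averaged as raw signals (0.0503). Without Control replicate 4 or Eucommia replicate 4 it passed (0.0460 and 0.0459), and in the other 6 fits that left 1 array out it did not (0.0595 to 0.138).

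Il6r, the ligand-binding chain of the interleukin-6 receptor, read 3.06, 3.44, 3.70 and 3.18 on the Control arrays and 3.71, 3.14, 3.74 and 3.79 on the Eucommia arrays. Of the latter, replicate 2 lay with the lower Control arrays, and the difference of 0.25 ± 0.19 did not pass. Il6st, the shared signalling chain gp130, read 2.997, 2.94, 3.16 and 3.57 on the Control arrays and 2.74, 2.92, 2.94 and 0.74 on the Eucommia arrays. Most of its difference of -0.84 ± 0.46 (adjusted p = 0.239 by limma) came from Eucommia replicate 4, without which it was -0.30 (adjusted p = 0.254). Il1rn read 2.45, 2.87, 3.26 and 2.64 on the Control arrays and 2.43, 2.44, 2.30 and 2.88 on the Eucommia arrays, overlapping at -0.29 ± 0.19, and its other probe gave -0.50 ± 0.17 (adjusted p = 0.0654, over all probes).

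Cebpb read 2.44, 2.63, 2.10 and 2.41 on the Control arrays and 2.55, 2.58, 2.66 and 2.78 on the Eucommia arrays, a difference of 0.25 ± 0.12 (95% interval -0.04 to 0.53; adjusted p = 0.193 by limma). The groups overlapped. Cebpd read 3.29, 2.70, 2.61 and 2.72 on the Control arrays and 2.67, 3.12, 2.96 and 3.11 on the Eucommia arrays, a difference of 0.13 ± 0.17. Il1rn and the receptors are also made by macrophages. Of 11 macrophage markers 10 were tested, 0 were called in either direction by limma and the median difference was -0.48. Their summed signal was 111 to 182 on the Control and 83.8 to 133 on the Eucommia arrays, and its part in the regulators' values was not tested.

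In the rest of the cytokine signalling pathway, 2 of 26 tested genes were higher and 6 lower (30.8% called). Of all features 24.8% were called (18.6% higher, 6.13% lower). Of features above the 75th percentile, 9.64% were called (3.75% higher, 5.9% lower). The 26 genes lie on both sides of that percentile, and they include Socs1 and Osmr, which entered the test through the Eucommia group alone. Osmr was above background on 0 Control arrays, and its measured 0.87 did not pass (adjusted p = 0.0726 by limma). The 6 with the smallest p are named. Socs3, a feedback inhibitor induced by Stat3, read -3.27, -2.42, -2.54 and -3.13 on the Control arrays and -1.19, -0.98, -0.89 and -0.88 on the Eucommia arrays. That is a rise of 1.85 ± 0.20 on the log2 scale (adjusted p = 0.000152 by limma). Socs3 had a mean of -1.91, below the 75th percentile. Higher calls made up 3.75% of features above that percentile and 18.6% of all features, so the share below it was above 18.6%. Socs3 passed in all 21 alternatives, with 0.82 (normexp) as the lowest value. Its relative Socs1 was above background on all 4 Eucommia arrays and on 0 of the Control arrays, so it passed the filter on dim probes through the Eucommia group alone and had to differ. As scaled here its bound is 1.74-fold higher, which is the same as its measured ratio, and its call is no support. The bound is not a minimum under other scalings, and with quantile normalization the log2 difference of Socs1 was 0.51. Socs1 was not tested where all 8 arrays were required or where a Eucommia array was left out. With normexp its log2 difference was 0.06 (adjusted p = 0.321 by limma). For the bound each Control array entered with its own Socs1 signal or its lowest detected signal, whichever was higher.

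Jak1, a kinase of the gp130 receptors, had -0.36 ± 0.09 and Stat5b, the factor of growth hormone signalling, had -0.29 ± 0.09 (adjusted p 0.0198 and 0.0368 by limma). Foxa2, a liver-enriched transcription factor, had -0.65 ± 0.18 (0.0257). Il1r2, a decoy receptor for interleukin-1, had -0.72 ± 0.20 (0.0280) and was near background, with 3 of 4 Control arrays above it. With the mean over its probes Jak1 was at -0.68, and with normexp Il1r2 was at -0.14 (adjusted p = 0.0766). Jak1 lost its call without Control replicate 4 (0.0511) or Eucommia replicate 2 (0.0622). Foxa2 lost it in 4, Il1r2 in 5 and Stat5b in 6 of 8 fits that left 1 array out. The probes of the cytokines Il6, Osm and Tnf were well above background on none of the 8 arrays.

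**Figure D4:**
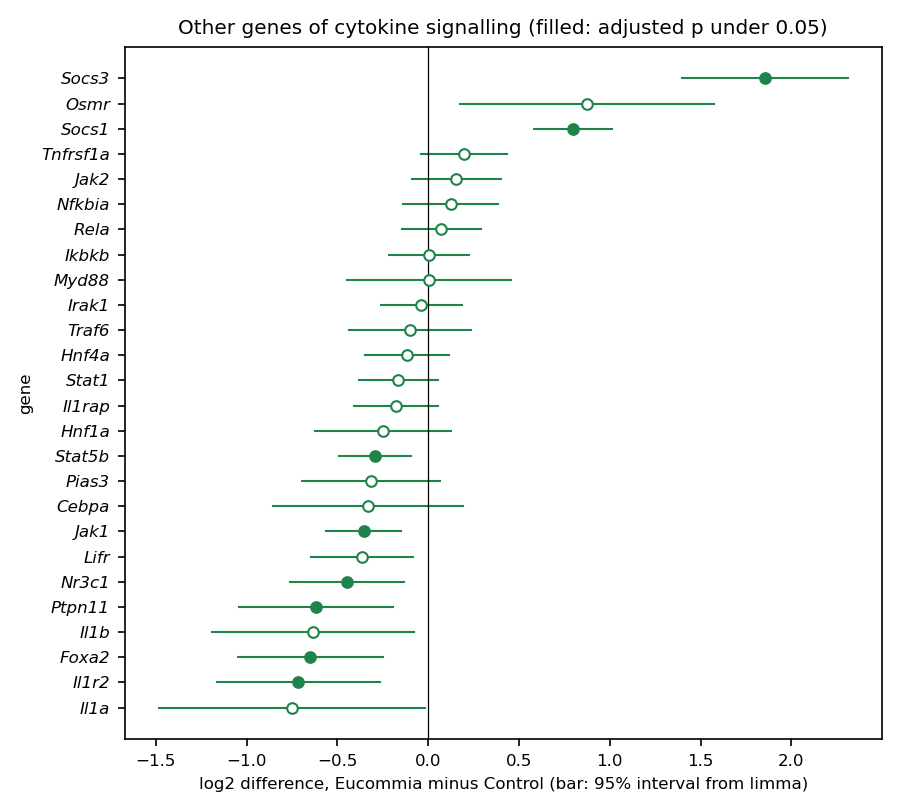
Log2 difference (Eucommia minus Control, 4 arrays each) of the 26 tested genes of cytokine signalling outside the 34, with the 95% interval from limma as bars; filled points passed an adjusted p of 0.05. Socs3 at 1.85 lies farthest from 0. Socs1 and Osmr were above background on 0 Control arrays.

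Of 26 other tested plasma proteins of the liver, 0 were higher and 2 lower (7.69% called, against 24.8% of all features), with a median of -0.13. Among features with a mean log2 signal above 7, where 8.36% were lower and 1.67% higher, the median was -0.11. Transferrin (Tf), the iron carrier, read 9.85, 10.20, 10.09 and 10.09 on the Control arrays and 9.38, 9.42, 9.50 and 9.73 on the Eucommia arrays. The groups did not overlap, and Tf fell by 0.55 ± 0.11 on the log2 scale (adjusted p = 0.00695 by limma). It passed in all 21 alternatives, with differences from -0.81 to -0.43. Mug1, murinoglobulin, a relative of A2m that falls in the acute phase of the rat, had -0.39 ± 0.10 (adjusted p = 0.0173) and did not overlap. Without Eucommia replicate 1 or 2 its adjusted p was 0.0584 and 0.0556, and with the mean over its probes 0.0555. The 2 macroglobulin relatives A2m, which rises in inflammation, and Mug1, which falls, were thus both lower.

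Within the groups, some arrays were low across the bright plasma proteins together. For the 19 secreted genes with a mean log2 signal above 7, Control replicate 1 was the lowest Control array for 16 (84.2%), against 53.8% of the 299 features that bright. Eucommia replicate 1 was the lowest Eucommia array for 13 (68.4%), against 48.5%. Eucommia replicate 4 was the highest for 10 (52.6%), against 69.9%. Median deviations from the group's own median were -0.14 for Control replicate 1 and -0.10 for Eucommia replicate 1, beside a median difference between the groups of -0.16. Without Control replicate 1, A2m, Apcs and Fga were called lower and Steap4 higher. Without Eucommia replicate 1 A2m alone was called, and without Eucommia replicate 2 or 3 none of the 32.

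**Figure D5:**
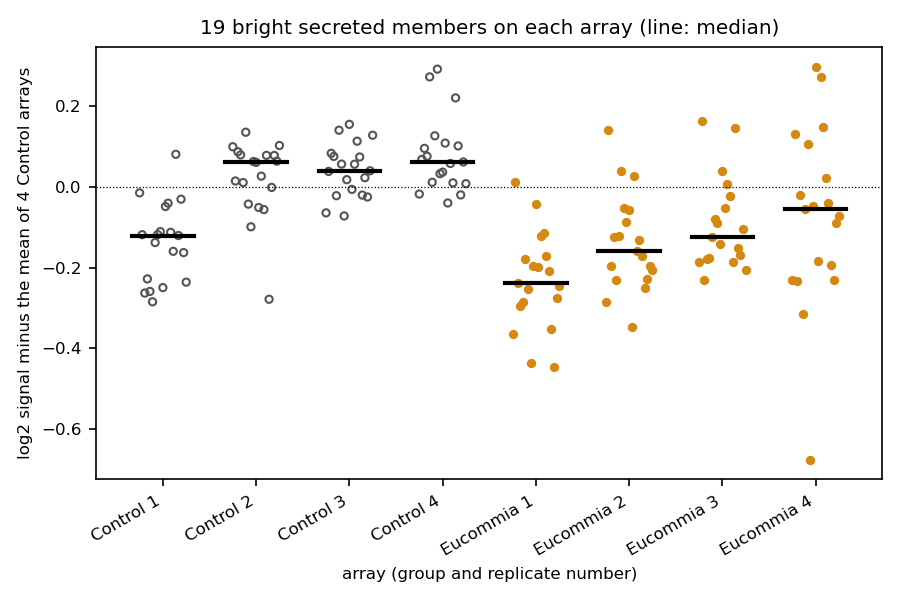
Log2 signal of the 19 secreted genes with a mean above 7 on each array, minus each gene's mean over the 4 Control arrays; lines are medians. Control replicate 1 lies below the other Control arrays, at a level that overlaps the Eucommia arrays.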

How the data were processed

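Liver RNA of 8 samples was hybridised to Agilent 1-colour (Cy3) arrays, 500 ng of total RNA each, per the labels' protocols. The deposited intensity values are the scanner software's processed signals; the submitters' processing notes name Agilent Feature Extraction 10.1.1.1. The other deposited columns are flags per spot. At 100% of 43379 spots that are not controls the deposited series table holds the same value.

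Signals were put on the log2 scale, each array's 75th percentile was subtracted, and spots of a probe were averaged without non-uniform spots. Probes well above background on at least 4 of 8 arrays were kept (27694 of 41012), so a gene detected in 1 group alone could pass. Accessions were matched without versions to RefSeq symbols of assembly GRCr8, which named 16336 probes. A gene is its brightest probe, and unnamed probes were joined by accession.

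The comparison used limma 3.58.1 (R 4.3.3), 2-sided, Benjamini-Hochberg over 24194 features, threshold 0.05; errors of differences are SEs of the fit. The test was checked on simulated data with independent noise for each gene and no slide effect, so the check does not bear on slide effects here. The number of arrays limits the precision. The alternatives were other scalings, background correction, filters, probe rules, variance models, leaving out single arrays, and a block for the replicate number. Averaging spots as raw signals was added after seeing the data. Values in every array are given for genes past the threshold, for those whose groups do not overlap, for the 3 brightest members and for the regulators. Genes of the lists of cytokine signalling and of other plasma proteins are named where past the threshold, up to 6 a list. Marker genes of neutrophils are named after their values were seen. The members and lists were chosen with earlier results of these data known.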

Additional observations from a re-analysis of the deposited data

Results flagged for a closer look

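Among 64 groups of 4 arrays (32 genes in each treatment), 8 held an array whose gap to its nearest neighbour exceeded Dixon's 95% critical share of the range. Chance flags about 1 group in 20. Control replicate 1 was low for Fga (9.24), Fgb (9.63) and Alb (9.79) and high for Cebpd (3.29). Control replicate 4 was high for Crp (7.65) and Control replicate 2 for Ttr (9.75). In the Eucommia group, replicate 2 was low for Il6r (3.14) and replicate 4 for Il6st (0.74).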

How the results depend on the processing

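Among counts and medians set beside an alternative, 140 values stayed within 1.5 times or 1 SD and 49 moved. Median centring gave 11342 genes called (7635 of them lower), 0 members higher and 19 lower, 17 other pathway genes and 16 other plasma proteins. It set the median difference to -0.41 for positive proteins, -0.47 for negative ones, -0.33 for regulators and -0.32 for the other members. Genes called were 12275 with no filter on dim probes and 3575 with all 8 arrays required. Members called higher were 0 with cyclic loess and with the mean over probes. Members called lower were 1 with the percentile over detected probes, 1 with all 8 arrays required and 5 with a trended robust variance. Quantile normalization gave medians of -0.045 for negative proteins and 0.030 for the other members. Normexp gave -0.055 for positive and 0.0054 for negative proteins. Other plasma proteins called were 4 with normexp, 4 with the trended variance, 4 with array weights and 1 with the mean over probes. The cause was not tested.

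Some signs turned, all in genes not called as reported. Under median centring Serpina1 at -0.14, Lcn2 at -0.25, Orm1 at -0.13, Itih3 at -0.20, Agt at -0.21, Il6r at -0.0026, Cebpb at -0.0081 and Cebpd at -0.12 had the opposite sign. With quantile normalization Fgb at 0.0024, Hp at 0.016, Hpx at 0.063, Lcn2 at -0.23, Saa4 at 0.037, Itih1 at 0.030, Ambp at 0.020 and Kng1 at 0.030 had the opposite sign. With cyclic loess Hpx at 0.031, Lcn2 at -0.18, Itih1 at 0.037 and Kng1 at 0.0059 had the opposite sign. With normexp Hp at 0.038, Hpx at 0.049, Lcn2 at -0.12, Saa4 at 0.11, Ttr at 0.023 and Rbp4 at 0.100 had the opposite sign. With array weights Lcn2 at -0.062, Itih3 at -0.035 and Agt at -0.0058 had the opposite sign. With 1 array left out in turn the difference also crossed 0 for 7 genes, running from -0.098 to 0.021 for Hpx, -0.22 to 0.33 for Lcn2, -0.023 to 0.31 for Orm1, -0.025 to 0.11 for Itih3, -0.030 to 0.10 for Agt, -0.099 to 0.0031 for Itih1 and -0.16 to 0.0044 for Kng1.

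With 1 array left out in turn, genes called ran from 3219 to 5598, members higher from 0 to 1 and members lower from 0 to 3. The median differences ran from -0.22 to -0.11 (positive), -0.27 to -0.18 (negative), -0.13 to -0.02 (regulators) and -0.10 to -0.02 (other members). Other pathway genes called ran from 2 to 7 and other plasma proteins from 1 to 3.

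Arrays of the same replicate number did not deviate together (correlations -0.04, -0.03, -0.06 and -0.10). Those of unlike number ran from -0.10 to 0.10. The values give no sign that the numbers pair the samples, but a pairing with little shared variation would not show in them. With the replicate number as a block, limma called 5002 genes, 0 members higher, 0 members lower and 4 other pathway genes. The 4 called members then had adjusted p of 0.0594 (A2m), 0.149 (Serpina3n), 0.121 (Stat3) and 0.0509 (Steap4). With 4 arrays a group on separate slides, differences near 0.2 for bright probes lie within the range that the scaling moves.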
